A study of Mus musculus with 16 samples.

Results

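The expression of 10 feedback genes of mitogen-activated protein (MAP) kinase signaling was followed in tumor-infiltrating lymphocytes (TILs): the dual-specificity phosphatase genes Dusp1, Dusp2, Dusp4, Dusp5, Dusp6 and Dusp10, the Sprouty genes Spry1 and Spry2, and the Sprouty-related genes Spred1 and Spred2. They were found by gene name, and all 10 had a row among the 55450 rows of the count table. The TILs came from subcutaneous tumors of B16F10, a mouse melanoma cell line that shares the C57BL/6 background, and RNA was sequenced from CD4 and CD8 TILs of WT mice and of mice that lack the deacetylase Sirt2 in the whole body (Sirt2-/-), with 4 libraries in each of the 4 groups and 16 in all. Per the methods of the study, Sirt2-/- mice were of strain B6.129-Sirt2tm1.1Fwa/J, WT mice were C57BL/6J, genotypes were matched for age and sex, and mice of 7 to 8 weeks were used. The knockout concerned the host and not the tumor line, and all 4 groups share the tumor line, the enzymatic digestion of the tumor and the enrichment of CD3+ cells. The labels do not say that a CD4 and a CD8 library with the same number came from 1 mouse, and p-values measure the spread between libraries of a group.

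T cell receptor (TCR) engagement activates Ras, which passes the signal through Raf and MEK to the MAP kinase ERK, while p38 and JNK form parallel MAP kinase routes. Dual-specificity phosphatases remove the activating phosphates from these kinases, and many of them are transcribed in response to the kinases they shut off. Sprouty and Spred proteins act further up, between the receptor and Raf, and Spred proteins bring the Ras inactivator neurofibromin to the membrane. Message levels of such genes are therefore often read as a record of recent MAP kinase activity, although RNA does not report the phosphorylation of a kinase.

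Of the 16 libraries, 3 stood apart before any gene was compared. The libraries held 28000949 to 62407851 counts, and 13 of them had 17730 to 22138 genes with at least 1 count. Sirt2-/- CD4 replicate 4 had 8169 such genes in spite of the highest total, WT CD4 replicate 1 had 12587 and WT CD8 replicate 1 had 14411. These 3 low-diversity libraries entered the tests, and results that rest on them are given with and without them. Sirt2 itself stood at 40.7 to 75.6 counts per 1000000 counts of a library (CPM) in WT CD4 and 33.4 to 51.5 in WT CD8. It stood at 6.53 to 10.3 in Sirt2-/- CD8 and 10.2 to 12.2 in the first 3 Sirt2-/- CD4 libraries. Sirt2-/- CD4 replicate 4 had 0 counts, which by the sampling of reads alone allows up to 3. That limit may not hold there, as Dusp6 had 1 count in it against 596 to 1046 in the other libraries of the group. Thus no library went against its genotype label, although the 0 in replicate 4 says little. Cd4 ran from 384 to 621 CPM in the CD4 libraries against 0 to 4.94 in the CD8 libraries, and Cd8a from 1004 to 1262 in CD8 against 0.0333 to 33.4 in CD4. Foxp3, which defines regulatory T (Treg) cells, was high in every CD4 library, at 306 to 924 CPM, and stood at 0.969 to 6.77 in the CD8 libraries. The CD4 libraries thus held Treg cells beside other CD4 cells, and in bulk RNA a different share of a cell type and a different RNA level per cell cannot be told apart.

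Promoter windows of 4 members are shown because they belong to the genes that differed most clearly between CD8 and CD4 TILs, first 2 that were lower in CD8 and then 2 that were higher. The 100 bases from 150 to 51 upstream of each RefSeq gene start (build GRCm38.p6) are written 5′ to 3′ on the strand of the gene, with the matches named below in capitals. The table of promoters covered 9 of the 10 members, all but Dusp4.
Dusp1 (chr17:26508523-26508622, minus strand): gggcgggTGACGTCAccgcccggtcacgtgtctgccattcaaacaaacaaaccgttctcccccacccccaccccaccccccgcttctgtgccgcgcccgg
Dusp5 (chr19:53528995-53529094, plus strand): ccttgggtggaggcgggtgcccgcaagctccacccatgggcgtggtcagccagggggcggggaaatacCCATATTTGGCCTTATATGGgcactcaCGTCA
Dusp2 (chr2:127336009-127336108, plus strand): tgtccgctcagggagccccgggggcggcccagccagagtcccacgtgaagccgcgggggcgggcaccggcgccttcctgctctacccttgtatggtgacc
Dusp6 (chr10:99263081-99263180, plus strand): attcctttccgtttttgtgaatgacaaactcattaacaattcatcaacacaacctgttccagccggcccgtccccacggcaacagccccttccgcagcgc
The capitals in Dusp1 are the cyclic AMP response element TGACGTCA, the palindrome bound by CREB, from −143 to −136. Those in Dusp5 are a pair of adjoining CArG boxes, the sites of serum response factor, from −82 to −73 and from −72 to −63, and then the core of the CREB element, read TGACG on the other strand, from −55 to −51. The Dusp5 window also lies within an exon of AC137853.2, an antisense gene, and none of the 4 windows overlaps an annotated exon of its own gene.

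A set of 6 motifs was searched on both strands in the 250 bases upstream of 32851 RefSeq promoters. The element TGACGTCA was found in 1.55% of them and in 1 of 9 members, Dusp1. Its core TGACG, which every full element also contains, was found in 17.8% of all promoters and in 3 of 9 members, Dusp1, Dusp5 and Spred2. The CArG box occurred in 1.47% of promoters and in 1 member, Dusp5. No member matched the AP-1 site TGANTCA (6.75% of all promoters) or the ETS site CCGGAAG (6.91%), and Spred2 and Spry2 matched the NFAT core GGAAAA (20.4%). A match describes the letters of this window and no binding, and a missing match says only that the letters are not there.

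Compared per length of exon, so that genes can be set side by side, the 3 leading members were phosphatases in each group, and a Sprouty gene was the lowest by the median, Spry2 in CD4 and Spry1 in CD8 TILs. In WT CD4 TILs, Dusp5 had the highest median, 51.9 CPM per kb, followed by Dusp4 with 43.5 and Dusp2 with 23.2. The ranges of Dusp5 (43.0 to 54.4) and Dusp4 (36.6 to 54.3) overlapped. In WT CD8 TILs the leading member was Dusp2, with 56.5 CPM per kb, ahead of Dusp5 with 27.9 and Dusp6 with 13.5. Dusp4, in second place in WT CD4 TILs, stood at 3.51 CPM per kb in WT CD8 TILs. Sirt2-/- TILs had the same 3 genes in front in each cell type, with Dusp4 at 69.0, Dusp5 at 43.6 and Dusp2 at 18.6 CPM per kb in CD4 and Dusp2 at 50.1, Dusp5 at 30.0 and Dusp6 at 16.6 in CD8. Spry1 and Spry2 were at 0.631 to 4.95 CPM per kb as group medians, and in WT CD8 TILs Spry2, with 4.95, was above Dusp4 and above Dusp1, with 3.001.

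**Figure D1:**
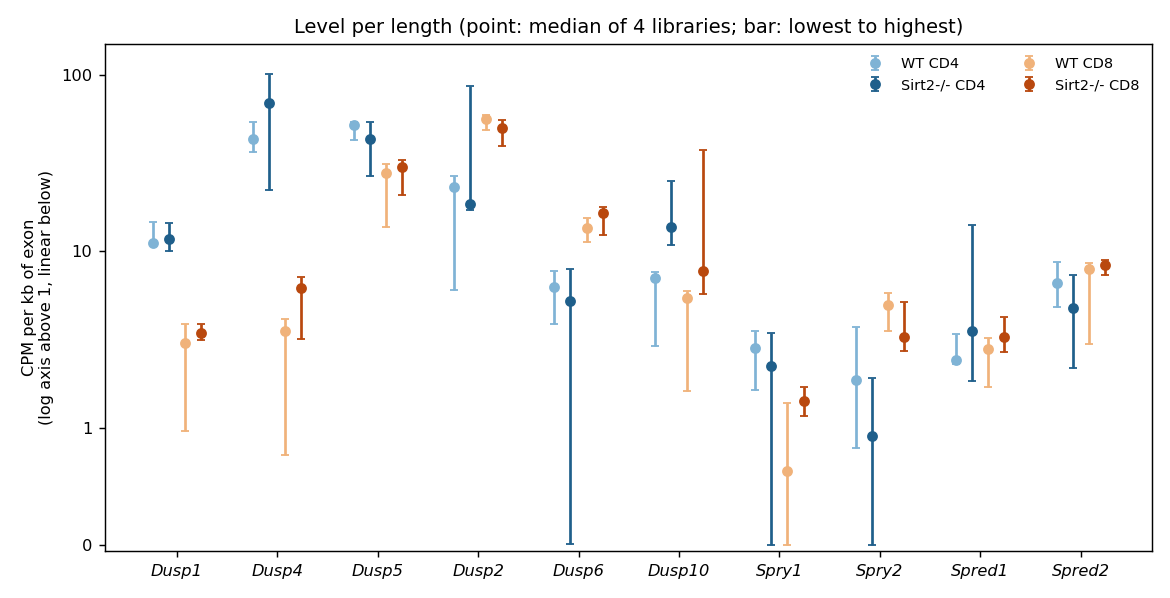
Level of each of the 10 members in CPM per kb of exon (vertical axis, logarithmic above 1 and linear below), with the 4 groups in separate colors, points for the median of 4 libraries and bars from the lowest to the highest library. Dusp4 fell from a median of 43.5 in WT CD4 to 3.51 in WT CD8, whereas Dusp2 led in CD8 with 56.5.

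The sharpest contrast among the members was between CD4 and CD8 TILs, and it went in both directions. Dusp1, Dusp4 and Dusp5 were lower and Dusp2 and Dusp6 higher in WT CD8 than in WT CD4 TILs, at an adjusted p below 0.05 in edgeR's quasi-likelihood test with Benjamini-Hochberg adjustment over 14892 genes. That made 2 of 10 members higher, where 728 of all genes tested (4.89%) were higher, and 3 of 10 lower, where 1037 (6.96%) were lower. In Sirt2-/- TILs, 2 of 10 members passed the same test, Dusp1 and Dusp4, both lower in CD8, against 209 of 15787 genes lower (1.32%) and 145 higher (0.918%). All 10 members passed the filter on low counts in each comparison.

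Dusp4 encodes a nuclear phosphatase that acts on ERK and other MAP kinases and that is itself induced by ERK. It stood at 100.2, 149, 114 and 125 CPM in WT CD4 replicates 1 to 4, and at 2.09, 11.3, 8.32 and 10.9 CPM in WT CD8 replicates 1 to 4. Every WT CD4 library was thus far above every WT CD8 library. This was a log2 fold change of −3.98 (SE 0.44, edgeR adjusted p = 0.000227), 15.7-fold lower in CD8. Without the 3 low-diversity libraries it was −3.67 (SE 0.17). In Sirt2-/- mice, Dusp4 stood at 61.0, 202, 176 and 278 CPM in CD4 and at 8.69, 16.8, 17.2 and 19.6 CPM in CD8 TILs. Again the groups did not overlap, and the CD4 libraries spread widely, with replicate 1 lowest and the low-diversity replicate 4 highest. Their log2 fold change was −3.53 (SE 0.47, edgeR adjusted p = 0.00861), 11.6-fold lower in CD8. The call for Dusp4 held in both genotypes in each alternative run, with adjusted p of at most 0.00456 in WT and 0.0461 in Sirt2-/-.

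Treg markers differed between the cell types in the same direction as Dusp4. The summed level of 4 Treg markers (Foxp3, Il2ra, Ikzf2 and Ctla4, all above 0 in every library) was 1526 to 2529 CPM in WT CD4 and 1154 to 2441 CPM in Sirt2-/- CD4, against 110.0 to 227 in WT CD8 and 145 to 318 in Sirt2-/- CD8 TILs. The Sirt2-/- CD4 library with the lowest Dusp4 level, replicate 1, also had the lowest Treg sum of the CD4 libraries, and the one with the highest Dusp4 level, replicate 4, had the highest Treg sum of its group. In WT CD4 TILs the order was another, as replicate 1 had the highest Treg sum (2529 CPM) with the lowest Dusp4 level (100.2 CPM), and replicate 4 the lowest sum (1526 CPM) with Dusp4 at 125 CPM. The part of Treg cells in the level of Dusp4 or of any other member was not tested.

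Dusp1 is an immediate-early gene whose product, a nuclear phosphatase, acts mainly on p38 and JNK and also on ERK. Its level was 48.5, 36.9, 35.9 and 37.3 CPM in WT CD4 and 3.21, 8.70, 11.2 and 12.9 CPM in WT CD8 replicates 1 to 4. The groups lay apart, and replicate 1, the low-diversity library, was the highest in CD4 and the lowest in CD8. Dusp1 had a log2 fold change of −2.21 (SE 0.37, edgeR adjusted p = 0.00288), 4.62-fold lower in CD8, and −1.76 (SE 0.18) without the low-diversity libraries. Sirt2-/- libraries repeated this order, with 38.2, 47.7, 39.4 and 33.1 CPM in CD4 and 10.4, 10.7, 12.8 and 12.0 CPM in CD8. There the log2 fold change was −1.80 (SE 0.35, edgeR adjusted p = 0.0374), 3.49-fold lower in CD8, and the adjusted p was 1.58e-05 without the low-diversity library. Leaving out any other single library of the 8 ended the call for Dusp1 in Sirt2-/- (edgeR adjusted p = 0.105 to 0.178), as did no filter on low counts (0.154). Dusp1 shares 11 bases of exon with Ergic1 on the opposite strand.

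Dusp5 encodes a nuclear phosphatase specific to ERK. In WT CD4 TILs it stood at 106, 131, 125 and 135 CPM, and in WT CD8 TILs at 34.0, 77.2, 60.8 and 76.9. All WT CD4 libraries were above all WT CD8 libraries, by a log2 fold change of −1.07 (SE 0.23, edgeR adjusted p = 0.0127) or 2.10-fold. In Sirt2-/- TILs the levels were 66.1, 126, 134 and 89.9 CPM in CD4 and 51.8, 81.4, 67.0 and 81.1 CPM in CD8. Here the ranges overlapped, since CD4 replicate 1 was lower than 3 of the CD8 libraries, and the log2 fold change was −0.58 (SE 0.26, edgeR adjusted p = 0.433). In limma-voom it was −0.78 and called (adjusted p = 0.0114), as were 28.4% of all genes. Its antisense neighbor AC137853.2 shares 547 bases of exon with Dusp5 and had 0 to 179 counts per library.

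Dusp2 and Dusp6 went the other way. Dusp2, a nuclear phosphatase first known from activated T cells, stood at 12.0, 48.6, 44.4 and 53.7 CPM in WT CD4 and at 97.8, 110.5, 116 and 119 CPM in WT CD8 TILs. The 4 CD8 libraries were all above the 4 CD4 libraries, with the low-diversity replicate 1 lowest in each group. Dusp2 had a log2 fold change of 1.40 (SE 0.37, edgeR adjusted p = 0.030), 2.63-fold higher in CD8, and 1.23 (SE 0.12, adjusted p = 3.48e-05) without the low-diversity libraries. Leaving out WT CD4 replicate 2 or 3 or WT CD8 replicate 3 or 4 ended the call (edgeR adjusted p = 0.0558, 0.0649, 0.0741 and 0.0735), as did no filter on low counts (0.0879) and 1 model over 16 libraries (0.124). In Sirt2-/- mice Dusp2 stood at 35.3, 34.2, 39.1 and 174 CPM in CD4 and at 111.0, 97.3, 103.5 and 79.0 CPM in CD8 TILs. The value of 174 came from the low-diversity replicate 4 and was above all CD8 libraries. With that library the log2 fold change was 0.47 (SE 0.53, edgeR adjusted p = 0.958), and without it 1.40 (SE 0.13, edgeR adjusted p = 5.26e-05).

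Dusp6 encodes a cytoplasmic phosphatase specific to ERK and is a classical transcriptional target of the ERK route. It stood at 16.6, 24.3, 22.7 and 12.1 CPM in WT CD4 and at 35.2, 44.5, 40.0 and 48.4 CPM in WT CD8 replicates 1 to 4. No CD4 library reached the lowest CD8 library, and the log2 fold change was 1.08 (SE 0.25, edgeR adjusted p = 0.018), 2.11-fold higher in CD8. The call was lost without WT CD8 replicate 4 (edgeR adjusted p = 0.0691) and with 1 model over 16 libraries (0.681). Sirt2-/- levels were 13.2, 24.7, 19.3 and 0.0179 CPM in CD4 and 38.8, 56.1, 53.7 and 50.1 CPM in CD8. The value of 0.0179 was 1 count in the low-diversity replicate 4, against 596 to 1046 counts in the other CD4 libraries of the genotype. With that library the log2 fold change was 1.77 (SE 1.21, edgeR adjusted p = 0.749), although the groups did not overlap, and without it 1.35 (SE 0.21, edgeR adjusted p = 0.00121).

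Without the 3 low-diversity libraries, 7 of 10 members differed between CD8 and CD4 TILs in WT and 4 of 10 in Sirt2-/- mice. Far more of all genes then passed as well, 4394 of 15694 (28.0%) in WT and 4250 of 16703 (25.4%) in Sirt2-/-. Both counts of members are to be read against these shares. In WT the members were Dusp1, Dusp4, Dusp5 and Spry1, lower in CD8, and Dusp2, Dusp6 and Spry2, higher in CD8, and in Sirt2-/- they were Dusp1 and Dusp4, lower, and Dusp2 and Dusp6, higher.

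With all libraries, the ranges of CD8 and CD4 TILs did not overlap for 6 members in WT (Dusp1, Dusp2, Dusp4, Dusp5, Dusp6 and Spry1) and for 4 in Sirt2-/- (Dusp1, Dusp4, Dusp6 and Spry2). This was so for 22.7% of all genes tested in WT and 22.2% in Sirt2-/-.

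**Figure D2:**
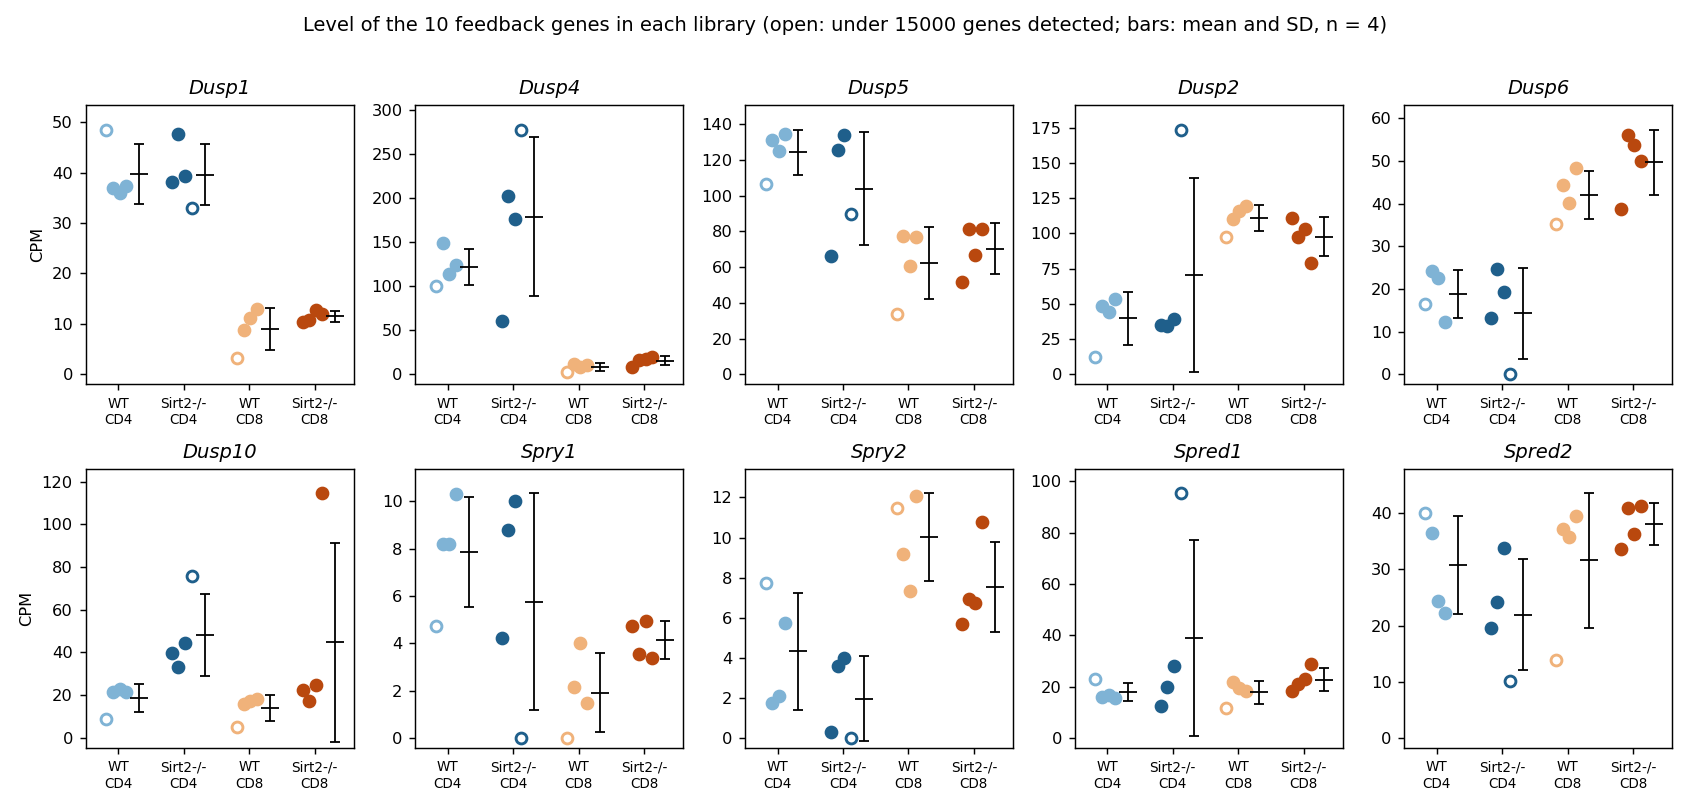
CPM (vertical axis, linear, a separate scale for each of the 10 genes) in each of the 16 libraries by group, with replicates 1 to 4 from left to right, open points for the 3 low-diversity libraries and black bars for the mean and SD of 4 libraries. Dusp1 and Dusp4 separate CD4 from CD8 TILs in both genotypes, and single libraries, such as the one with 174 CPM of Dusp2, set the SD of several Sirt2-/- CD4 groups.

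**Figure D3:**
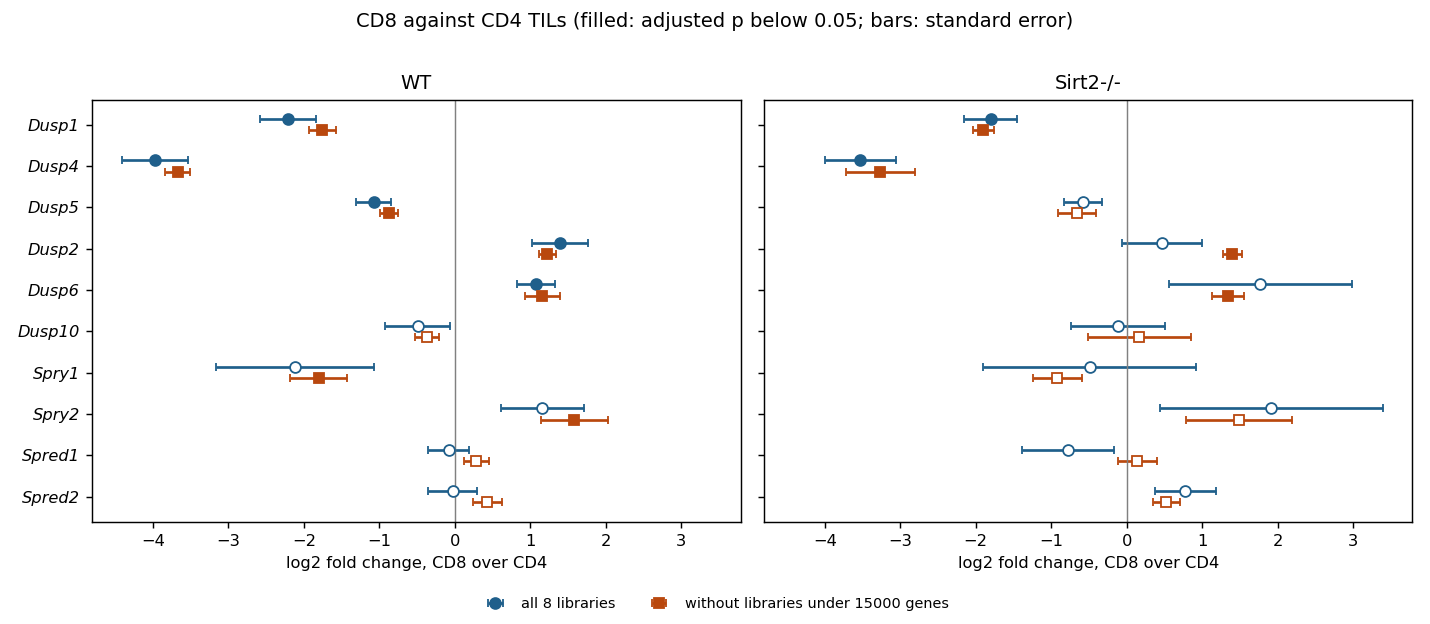
The log2 fold change of CD8 over CD4 TILs (horizontal axis) for each member in WT and Sirt2-/- mice, with circles for all 8 libraries, squares without the low-diversity libraries, bars for the standard error and filled symbols for an adjusted p below 0.05. Dusp4 lies at −3.98 in WT and −3.53 in Sirt2-/-, and the bars of Dusp2 and Dusp6 in Sirt2-/- shorten once 1 library is left out.

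The Sprouty and Spred genes were less separated. Spry1, an inhibitor of Ras activation downstream of antigen and growth factor receptors, stood at 4.72, 8.18, 8.21 and 10.3 CPM in WT CD4 and at 0, 2.17, 4.00 and 1.496 CPM in WT CD8 TILs. The 0 was a count of 0 in the low-diversity replicate 1. By the sampling of reads alone it allows up to 3 counts, and possibly more in a low-diversity library. All WT CD4 libraries were above all WT CD8 libraries, with a log2 fold change of −2.11 (SE 1.05, edgeR adjusted p = 0.249), and −1.80 (SE 0.38, edgeR adjusted p = 0.00488) without the low-diversity libraries. Sirt2-/- levels were 4.24, 8.77, 10.03 and 0 CPM in CD4 and 4.74, 3.53, 4.95 and 3.38 CPM in CD8, and overlapped. There the log2 fold change was −0.49 (SE 1.41, edgeR adjusted p = 0.998). Spry1 shares 710 bases of exon with Gm42922 on the other strand, which had 0 to 11 counts.

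Spry2, a relative of Spry1 with the same place in the pathway, had its higher levels in CD8 TILs. It stood at 7.75, 1.72, 2.07 and 5.72 CPM in WT CD4 and at 11.5, 9.18, 7.34 and 12.1 CPM in WT CD8 replicates 1 to 4. In CD4, the low-diversity replicate 1 exceeded the lowest CD8 library, and the log2 fold change was 1.16 (SE 0.55, edgeR adjusted p = 0.222) with it and 1.59 (SE 0.45, edgeR adjusted p = 0.0219) without the low-diversity libraries. In Sirt2-/- TILs it stood at 0.287, 3.59, 3.98 and 0 CPM in CD4 and at 5.70, 6.91, 6.71 and 10.8 CPM in CD8. These groups did not overlap, and the log2 fold change of 1.92 had an SE of 1.48 (edgeR adjusted p = 0.811). Thus Spry1 and Spry2 had values of opposite sign in CD8 against CD4 TILs, in both genotypes. With limma-voom both were called in WT (adjusted p = 0.000952 and 0.00121), as were 37.0% of all genes. In Sirt2-/- neither was called by edgeR and both had a large SE. There limma-voom called Spry1 (−0.99, adjusted p = 0.0402) among 28.4% of all genes. Spry1 turned to 0.29 there with the replicate number as a block.

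Spred1 and Spred2 were not called by edgeR in either genotype, and limma-voom called Spred2 in Sirt2-/- TILs (log2 fold change 0.51, adjusted p = 0.0386). Spred1 stood at 23.1, 16.1, 16.8 and 15.6 CPM in WT CD4, at 12.5, 19.8, 28.1 and 95.4 in Sirt2-/- CD4, at 11.6, 21.8, 19.4 and 18.2 in WT CD8 and at 18.2, 21.2, 22.9 and 28.7 in Sirt2-/- CD8 TILs. The 95.4 CPM came from the low-diversity replicate 4, and the other 15 libraries lay between 11.6 and 28.7. The log2 fold change of CD8 over CD4 was −0.08 (SE 0.27) in WT and −0.78 (SE 0.61) in Sirt2-/-, and turned to 0.28 (SE 0.17) and 0.14 (SE 0.25) without the low-diversity libraries. Spred2 stood at 40.0, 36.4, 24.4 and 22.3 CPM in WT CD4, at 19.5, 24.3, 33.9 and 10.1 in Sirt2-/- CD4, at 13.8, 37.3, 35.8 and 39.5 in WT CD8 and at 33.7, 40.9, 36.2 and 41.3 in Sirt2-/- CD8 TILs. Its lowest values in CD8 and in Sirt2-/- CD4 TILs were again low-diversity libraries. Its log2 fold change was −0.03 (SE 0.32) in WT, turning to 0.43 (SE 0.19) without those libraries, and 0.78 (SE 0.41) in Sirt2-/-, or 0.52 (SE 0.18) without them.

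The study asked what the loss of Sirt2 does to T cells in tumors, and for the feedback genes no difference between genotypes passed the test. In CD4 TILs, 0 of 10 members were called by edgeR, DESeq2 or limma-voom, where edgeR called 0 of 15070 genes (0.0%), DESeq2 7 and limma-voom 4, and 1 member, Dusp10, had an unadjusted p below 0.05, as had 190 genes (1.26%). In CD8 TILs, 0 of 10 members were called by any of the 3 tools, where edgeR called 1 of 15302 genes (0.00654%), Sirt2 itself, DESeq2 28 and limma-voom 5, and the member with an unadjusted p below 0.05 was again Dusp10, among 579 genes (3.78%). DESeq2 gave no adjusted p for Dusp2 in CD4 and for Dusp10 in CD8 TILs, so that its counts cover 9 members each, as they do in the interaction test, without Dusp2. The 2 comparisons have no library in common, but the labels do not say whether their libraries came from the same mice.

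Dusp10, which encodes a phosphatase of p38 and JNK, was the member with an unadjusted p below 0.05 in both cell types. In CD4 TILs it stood at 8.82, 21.5, 23.1 and 21.3 CPM in WT and at 39.6, 33.1, 44.3 and 75.9 CPM in Sirt2-/- replicates 1 to 4. All 4 Sirt2-/- libraries were above all 4 WT libraries, which was so for 1 of 10 members, while groups did not overlap for 472 of 15070 genes (3.13%). The log2 fold change was 1.36 (SE 0.45), with an unadjusted edgeR p of 0.0127 and an adjusted p of 1.0. The extremes of both groups were low-diversity libraries, and without them the log2 fold change was 0.83 (SE 0.17), with an unadjusted edgeR p of 0.000383 and an adjusted p of 0.236. Over all alternatives run, it lay between 0.78 and 1.50, and the adjusted p between 0.236 and 1.0.

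In CD8 TILs, Dusp10 stood at 4.93, 16.1, 17.1 and 18.2 CPM in WT and at 22.4, 17.4, 24.7 and 114.5 CPM in Sirt2-/- replicates 1 to 4. A single library, Sirt2-/- CD8 replicate 4, was far above the rest, and the ranges overlapped, as they did for all 10 members. Sirt2-/- replicate 2 was below WT replicate 4, and of all genes tested 2.95% had groups that did not overlap. The log2 fold change was 1.68 (SE 0.62), with an unadjusted edgeR p of 0.0205 and an adjusted p of 0.986, and 0.61 without Sirt2-/- CD8 replicate 4. Without the low-diversity WT CD8 replicate 1 it was 1.40 (SE 0.79), with an unadjusted edgeR p of 0.133. Markers of other cells moved with Sirt2-/- CD8 replicate 4. Of the 8 CD8 libraries it had the highest summed levels of 10 macrophage and monocyte markers (61.3 CPM, against 8.87 to 35.0 in the others), of 6 fibroblast and endothelial markers (108 CPM, against 36.2 to 83.2), of 4 NK cell markers (449 CPM, against 237 to 287) and of 4 Treg markers (318 CPM, against 110.0 to 227). In Sirt2-/- CD4 replicate 4, with the next highest Dusp10 level (75.9 CPM), the macrophage and monocyte sum was 11.6 CPM. The part of these cells in the level of Dusp10 was not tested. Sirt2-/- CD8 replicate 4 had 22138 genes with at least 1 count, the most of any library.

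The other members had unadjusted edgeR p above 0.05 between genotypes with all libraries. In CD4 TILs the log2 fold changes of Sirt2-/- over WT were 0.01 (SE 0.29) for Dusp1, 0.55 (SE 0.37) for Dusp4 and −0.26 (SE 0.24) for Dusp5. Without the low-diversity libraries they were 0.19 (SE 0.15), 0.18 (SE 0.38) and −0.26 (SE 0.21). With all libraries, Dusp2 and Spred1 had 0.81 (SE 0.62) and 1.11 (SE 0.63). These were set by replicate 4 of Sirt2-/- CD4 and became −0.43 (SE 0.15) and 0.31 (SE 0.27) without the low-diversity libraries. Of Dusp6, Spry1 and Spry2, Sirt2-/- CD4 replicate 4 had at most 1 count. Their log2 fold changes were −0.39 (SE 1.25), −0.44 (SE 1.48) and −1.11 (SE 1.60), and Spred2 had −0.47 (SE 0.51). Without the low-diversity libraries these became −0.05 (SE 0.29), −0.21 (SE 0.34), −0.27 (SE 0.78) and −0.10 (SE 0.24). In CD8 TILs, Dusp4 had a log2 fold change of 0.94 (SE 0.44), with an unadjusted edgeR p of 0.0557 and an adjusted p of 0.986, or 0.62 (SE 0.25, unadjusted edgeR p of 0.0288) without the low-diversity library. Of the rest, Spry1 had 1.11 (SE 0.90), Dusp1 0.35 (SE 0.35), Spred1 0.36 (SE 0.22), Spred2 0.27 (SE 0.27), Dusp6 0.24 (SE 0.14), Dusp5 0.18 (SE 0.24), Dusp2 −0.18 (SE 0.12) and Spry2 −0.41 (SE 0.27). Without the low-diversity library, Spry1 had 0.71 (SE 0.36), Dusp1 0.08 (SE 0.18), Spred1 0.21 (SE 0.16) and Spred2 0.03 (SE 0.11). Dusp6 then had 0.17 (SE 0.13), Dusp5 −0.02 (SE 0.16), Dusp2 −0.23 (SE 0.11) and Spry2 −0.33 (SE 0.25). With all libraries, 8 of the 10 values were above 0 in CD8 and 5 in CD4. Their medians were 0.31 and −0.12, beside medians of 0.01 and −0.11 over all genes tested. Without the low-diversity libraries 7 were above 0 in CD8 and 4 in CD4, and the medians were 0.12 and −0.07. With limma-voom the CD8 median was 0.14.

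**Figure D4:**
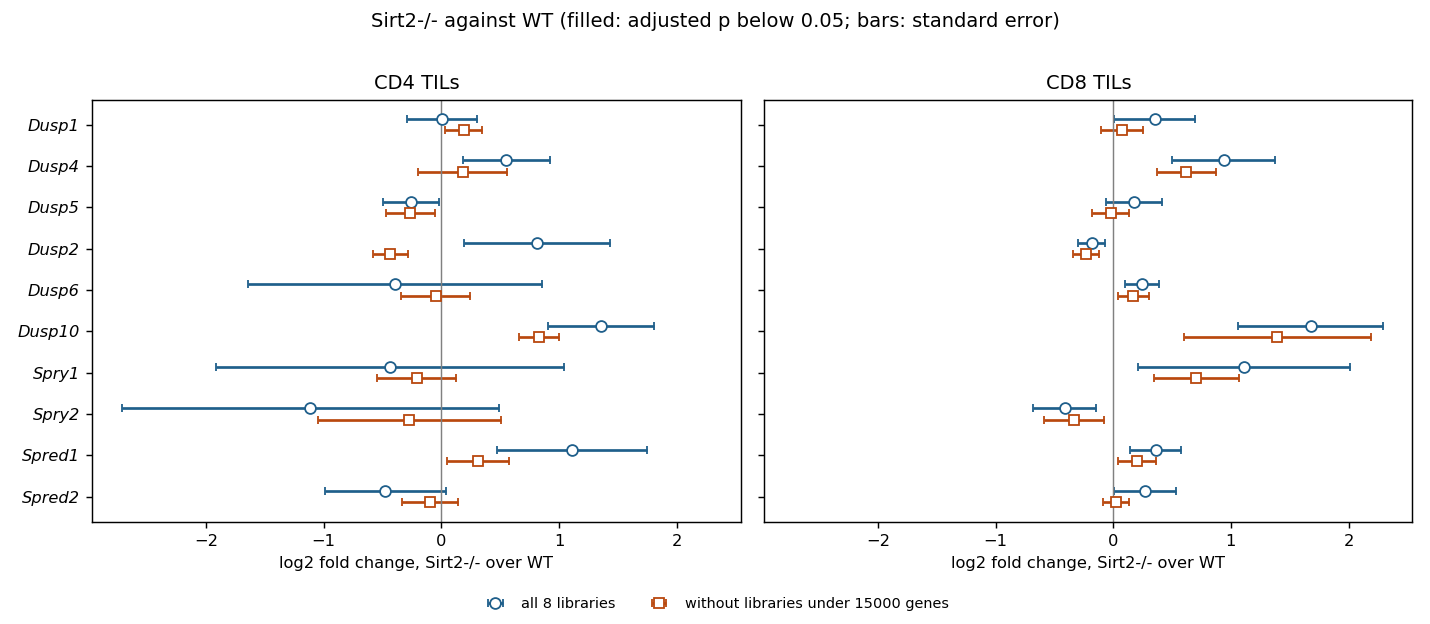
The log2 fold change of Sirt2-/- over WT (horizontal axis) for each member in CD4 and CD8 TILs, with circles for all 8 libraries, squares without the low-diversity libraries and bars for the standard error. No symbol is filled, as no member reached an adjusted p below 0.05, and Dusp10 lies at 1.36 in CD4 and 1.68 in CD8 TILs.

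Whether the effect of the knockout differed between CD4 and CD8 TILs was tested with the interaction of genotype and cell type over all 16 libraries. None of the 10 members was called by edgeR, DESeq2 or limma-voom, and 0 had an unadjusted edgeR p below 0.05, where edgeR called 0 of 17270 genes (0.0%), DESeq2 2 and limma-voom 0, and 342 genes (1.98%) had an unadjusted p below 0.05. The interaction log2 value was 0.38 (SE 0.63) for Dusp4, 0.30 (SE 0.81) for Dusp10, 0.35 (SE 0.54) for Dusp1 and −1.01 (SE 0.69) for Dusp2. The same term tests the difference between cell types across genotypes, so the calls of Dusp2, Dusp5 and Dusp6 in WT and not in Sirt2-/- TILs did not amount to a difference between genotypes that passed the test.

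In order of group means, the neighbors that lay apart were few. Dusp1 ran from WT CD4 (39.7 ± 5.93 CPM, SD, n = 4) and Sirt2-/- CD4 (39.6 ± 6.07) to Sirt2-/- CD8 (11.5 ± 1.08) and WT CD8 (8.99 ± 4.22), and its only gap without overlap was between Sirt2-/- CD4 and Sirt2-/- CD8. Dusp4 ran from Sirt2-/- CD4 (179 ± 89.9) and WT CD4 (122 ± 20.6) to Sirt2-/- CD8 (15.6 ± 4.75) and WT CD8 (8.14 ± 4.24), with its gap between WT CD4 and Sirt2-/- CD8. Dusp6 ran from Sirt2-/- CD8 (49.7 ± 7.64) and WT CD8 (42.0 ± 5.68) to WT CD4 (18.9 ± 5.61) and Sirt2-/- CD4 (14.3 ± 10.6), with its gap between WT CD8 and WT CD4. For the other 7 members every pair of neighboring groups overlapped. Dusp10 had both Sirt2-/- groups, CD4 (48.2 ± 19.0) and CD8 (44.8 ± 46.6), above both WT groups, CD4 (18.7 ± 6.63) and CD8 (14.1 ± 6.15), by the mean, as did Spred1 with 38.9 ± 38.2 and 22.7 ± 4.42 against 17.9 ± 3.48 and 17.7 ± 4.38.

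The rest of the pathway was followed through lists of genes chosen for their role. Of 10 further MAP kinase phosphatases and Sprouty relatives, 9 were in the table and 7 were tested in CD8 against CD4 TILs in WT, where 1 was called, Dusp7, a cytoplasmic ERK phosphatase, lower in CD8 at −1.16 (SE 0.23, edgeR adjusted p = 0.00742). Of all genes, 4.89% were higher and 6.96% lower in WT CD8 TILs. Of the list, 8 were tested in Sirt2-/- TILs and 0 called. An unadjusted p below 0.05 was found for 1 of them, as for 1842 of 15787 genes. Dusp7 stood at −1.54 (SE 0.39, edgeR adjusted p = 0.0968) and Spry4 at 2.63 (SE 1.36, edgeR adjusted p = 0.555). The median of this list was −0.54 in WT and −0.27 in Sirt2-/-, beside −0.02 and 0.16 over all genes. Leaving out the low-diversity libraries gave 1 called gene higher and 1 lower in CD8 in each genotype. Of all genes, 28.0% in WT and 25.4% in Sirt2-/- were then called.

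Among 20 genes on the route from the TCR to ERK, 2 were higher and 2 lower in WT CD8 than in WT CD4 TILs. Of all genes, 4.89% were higher and 6.96% lower. The scaffold Ksr1 had a log2 fold change of −1.14 (SE 0.24, edgeR adjusted p = 0.0105) and phospholipase Plcg1 one of −0.80 (SE 0.11, adjusted p = 0.000966), while the kinases Prkcq and Lck were higher by log2 values of 0.55 (SE 0.10, adjusted p = 0.00575) and 0.41 (SE 0.11, adjusted p = 0.0372). With all libraries, none of the 20 was called by edgeR in Sirt2-/- TILs. An unadjusted p below 0.05 was found for 5, as for 1842 of 15787 genes. Lck and Plcg1 stood at 0.71 (SE 0.18) and −0.90 (SE 0.24). Once the low-diversity libraries were left out, 2 were called higher and 5 lower in CD8 in Sirt2-/-. In WT these were 3 higher and 4 lower, beside 25.4% of all genes called in Sirt2-/- and 28.0% in WT.

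Of 13 other brakes on Ras and ERK, 1 was higher and 4 were lower in WT CD8 TILs, beside 4.89% and 6.96% of all genes, and the list median was −0.27 in WT and 0.03 in Sirt2-/-. On the log2 scale, Ptpn6, the phosphatase SHP-1, was higher by 1.10 (SE 0.18, edgeR adjusted p = 0.00229), and the diacylglycerol kinases Dgka and Dgkz, which remove the lipid that recruits the Ras activator Rasgrp1, were lower at −1.19 (SE 0.19, adjusted p = 0.00239) and −0.81 (SE 0.16, adjusted p = 0.00652). The adaptor Dok1 stood at −0.92 (SE 0.26, adjusted p = 0.0444), and the Ras GTPase activator Rasa1 was also lower. Dgka was the 1 gene of the list called in Sirt2-/- TILs, with −1.20 (SE 0.22, edgeR adjusted p = 0.0344). Leaving out the low-diversity libraries gave 2 called higher and 3 lower in Sirt2-/-, and 1 higher and 4 lower in WT. The shares of all genes called were then 25.4% in Sirt2-/- and 28.0% in WT.

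On the p38 and JNK route, 0 of 10 genes were higher and 2 lower in WT CD8 TILs, beside 4.89% and 6.96% of all genes. The 2 were Gadd45b, an activator of the upstream kinases, at −2.03 (SE 0.39, edgeR adjusted p = 0.00665) and the kinase Map2k3 at −0.50 (SE 0.14, adjusted p = 0.0439). Gadd45b was also called in Sirt2-/- TILs, at −2.27 (SE 0.45, edgeR adjusted p = 0.0425). Of 16 ERK-induced transcription factors and targets, 15 were tested in WT, and Myc was higher in CD8 by 1.63 (SE 0.14, edgeR adjusted p = 4.49e-05) and Junb lower at −1.01 (SE 0.27, adjusted p = 0.0341). In Sirt2-/- TILs, with all libraries, 0 of 16 were called by edgeR. An unadjusted p below 0.05 was found for 3, as for 1842 of 15787 genes. Myc stood at 2.14 (SE 0.47, adjusted p = 0.0603) and Fosl2 at −1.98 (SE 0.47, adjusted p = 0.0803). Once the low-diversity libraries were left out, 4 were called higher and 4 lower in Sirt2-/-, and 6 higher and 5 lower in WT. On the p38 and JNK route 1 was then called higher and 2 lower in each genotype. Of all genes, 25.4% in Sirt2-/- and 28.0% in WT were called.

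Immediate early and heat shock genes, many of which are induced while a tumor is digested, were followed because Dusp1 belongs to the same class. The summed level of 17 of them was 1806 to 2280 CPM in WT CD4, 2166 to 2666 in Sirt2-/- CD4, 2117 to 3777 in WT CD8 and 2775 to 3207 in Sirt2-/- CD8 TILs, so that 7 of 8 CD8 libraries were above every CD4 library. Most of this sum is Hspa8, a constitutive heat shock protein, with a mean of 2560 CPM in WT CD8 and 1339 in WT CD4. Gene by gene the direction was the other one, with 4 of 17 above 0 in WT CD8 against CD4 TILs (median log2 fold change −0.74, beside −0.02 over all genes) and 6 of 17 in Sirt2-/- (median −0.32, beside 0.16), and Dusp1 was likewise lower in CD8. Of the 17, 3 were called in WT, Hspa8 higher in CD8 by 0.86 (SE 0.17, edgeR adjusted p = 0.00715), Hspa1b lower at −1.85 (SE 0.41, adjusted p = 0.014) and Junb. Of all genes, 4.89% were higher and 6.96% lower in WT CD8 TILs. In Sirt2-/- TILs, with all libraries, 0 of 17 were called by edgeR. An unadjusted p below 0.05 was found for 4, as for 1842 of 15787 genes. Hspa1b stood at −2.11 (SE 0.46, edgeR adjusted p = 0.0601). Leaving out the low-diversity libraries gave 3 called higher and 5 lower in Sirt2-/-, and 3 higher and 8 lower in WT. The shares of all genes called were then 25.4% in Sirt2-/- and 28.0% in WT. Fos itself was scarce, at 0 to 9.10 CPM over all libraries. The part of tissue handling in the levels of the members was not tested.

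Between genotypes, none of the 6 lists held a gene called by edgeR in CD4 or in CD8 TILs. An unadjusted p below 0.05 was found for 1 gene in CD4 and 2 in CD8, beside 1.26% and 3.78% of all genes. In CD4 TILs Cblb, a ubiquitin ligase that limits TCR signaling, had the smallest unadjusted p of all lists, 0.0412 by edgeR, with a log2 fold change of 0.36 (SE 0.16), and Egr1 had 1.45 (SE 0.90). In CD8 TILs the AP-1 subunits Jun and Fosl2 had log2 fold changes of 1.08 (SE 0.28) and 0.62 (SE 0.25), with unadjusted edgeR p of 0.00269 and 0.0322 and adjusted p of 0.986 for both. Of the 16 ERK-induced genes, 13 had a value above 0 in CD8 TILs (median 0.27, beside 0.01 over all genes) and 8 of 15 in CD4 TILs (median 0.10, beside −0.11). In the interaction 0 genes of the 6 lists were called, and Dgkz had an interaction log2 value of 0.54 (SE 0.24), with an unadjusted edgeR p of 0.0384.

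Genes whose pattern was most like each member were ranked by Pearson's r of log2 CPM over the 13 libraries that were not low in diversity, among 17270 genes. These libraries fall into CD4 and CD8, so any gene that differs between the cell types gets a high r, and r is a description. For Dusp4 the leading genes were H1f0 (0.990), Hif1a (0.990) and Tnfrsf18 (0.989), the last encoding the receptor GITR. For Dusp1 they were Tmem64 (0.989), Foxp3 (0.982) and Gm4926 (0.982). Dusp5 was followed by Ntng2 (0.970), Gm29113 (0.956) and Kdm2b (0.946), and Spry1 by Lrrk2 (0.951), Fbxl17 (0.932) and Flicr (0.914). Flicr is a noncoding RNA gene next to Foxp3, and Foxp3 itself stood among the nearest 3 of Dusp1.

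Members with higher CD8 levels had other companions. Dusp2 was followed by Nsun2 (0.988), Nat10 (0.981) and Smyd2 (0.981), Dusp6 by Spire1 (0.979), Gem (0.976) and Spag7 (0.973), and Spry2 by Serpine2 (0.962), BC035044 (0.954) and Psmc5 (0.951). Spred2 was nearest to Hist1h3d (0.944), Apoo (0.939) and Cd93 (0.939), and Spred1 to Hhex (0.930), Il12rb1 (0.899) and Gzmb (0.845), the last a granzyme. Dusp10 had the lowest leading value, with Flt1 (0.869), Syk (0.855) and Il4ra (0.835).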

How the data were processed

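Count tables were deposited by the authors as whole-number read counts per gene with no normalization, 1 column per library. The submitters' processing notes name STAR, HTSeq and build mm10, with no versions, and the strand setting of the counting is not given in the sources used here. Libraries were made from low-input total RNA with a stranded kit. All 55450 gene identifiers were found in GENCODE M21, which gave exon lengths.

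From the counts, edgeR 4.0.16 (R 4.3.3) was run on the 8 libraries of each comparison, or on 16 for the interaction, with TMM scaling, filterByExpr by group and the quasi-likelihood test, two-sided, adjusted by Benjamini-Hochberg over all genes tested, with a threshold of 0.05. SE is the absolute log2 fold change divided by the square root of F. CPM used TMM over 16 libraries, and log2 CPM a prior count of 2. Alternatives were DESeq2 1.42.0, limma-voom (limma 3.58.1) with quality weights, DESeq2 size factors, no filter, the replicate number as a block, 1 model over 16 libraries, and libraries left out. An adjusted p that DESeq2 gave as NA was kept as NA. The tests were tried on simulated data that held no low-diversity library, and no result given here rests on that trial. Depth was 28000949 to 62407851 counts per library. Precision rested on the spread between libraries, which was widest where 1 library had few genes.

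Deviations from group means over 5000 genes correlated for same-numbered CD4 and CD8 libraries of WT mice (r = 0.24, 0.31, 0.25 and 0.24). No r was computed between libraries with different numbers, and replicate 1 was a low-diversity library in both groups. These values therefore cannot show whether the numbers pair samples by mouse. Blocking on the numbers kept the same 5 member calls in WT. In the other comparisons r lay between −0.11 and 0.25, the highest for replicate 1 of Sirt2-/- CD8 against CD4 TILs. All 10 members are named, and from each list up to 4 called genes with the largest change, or up to 2 with the smallest p. The members and lists were chosen with earlier results of these data known. Promoter sequences are from RefSeq (GRCm38.p6). Protein sequences were not used here. For 1 gene that the rule would name from these lists, no value is given here.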

Additional observations from a re-analysis of the deposited data

Results flagged for a closer look

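Of 40 groups of 4 values (10 members in 4 groups), 7 had a library far from the other 3 by Dixon's test, where chance gives about 1 in 20 groups, or 2. Of the 7, 6 were in the 3 low-diversity libraries. WT CD4 replicate 1 was the highest of its group for Dusp1 (48.5 CPM) and Spred1 (23.1 CPM) and the lowest for Dusp10 (8.82 CPM). WT CD8 replicate 1 was the lowest for Dusp10 (4.93 CPM) and Spred2 (13.8 CPM). Sirt2-/- CD4 replicate 4 was the highest for Dusp2 (174 CPM). The remaining value was Dusp10 in Sirt2-/- CD8 replicate 4 (114.5 CPM), a library with the most genes detected of all and with the highest sums of macrophage, NK cell and Treg markers among the CD8 libraries.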

How the results depend on the processing

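Between genotypes, 0 members passed under every alternative run. The count of genes there moved in CD4 TILs from 0 to 7 (DESeq2), 4 (limma-voom) and 6 (without the low-diversity libraries), and in CD8 TILs from 1 to 28 (DESeq2), 5 (limma-voom), 5 (no filter), 4 (replicate block) and 7 (without the low-diversity library, WT CD8 replicate 1), with 0 to 7 on leaving out single libraries (0 without Sirt2-/- CD8 replicate 1 or 4, 2 without WT CD8 replicate 2, 4 without WT CD8 replicate 4). In the interaction DESeq2 called 2 genes in place of 0.

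In CD8 against CD4 TILs of WT mice, the 5 members became 8 with limma-voom, 3 with 1 model over 16 libraries, 4 with no filter and 7 without the low-diversity libraries, and 3 to 6 on leaving out single libraries, 3 of them without WT CD8 replicate 4. The 1765 genes became 2651 (DESeq2), 5504 (limma-voom), 861 (16 libraries) and 4394 (without the low-diversity libraries), and 1022 to 2767 on leaving out single libraries, the last without WT CD4 replicate 1. In Sirt2-/- mice the 2 members became 7 (limma-voom), 1 (no filter), 1 (replicate block) and 4 (without the low-diversity library), and 1 to 4 on leaving out single libraries, where each other library gave 1, Dusp4. The 354 genes there became 1339 (DESeq2), 4481 (limma-voom), 108 (replicate block), 800 (16 libraries) and 4250 (without the low-diversity library), and 111 to 4250 on leaving out single libraries. The members that limma-voom added were Spry1, Spry2 and Dusp10 in WT and Dusp2, Dusp5, Dusp6, Spry1 and Spred2 in Sirt2-/-. The cause of these shifts was not tested. The replicate block in Sirt2-/- rests on numbers whose pairing is not known (r = 0.25, −0.015, 0.08 and 0.042), and the block changed no other member call.

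Signs turned, on the log2 scale, only for members that were not called. In Sirt2-/- against WT CD4 TILs, Dusp1 turned to −0.0175 (DESeq2), −0.0178 (its size factors) and −0.0029 (16 libraries), and spanned −0.0976 to 0.10 on leaving out single libraries. Dusp2 turned to −0.35 (limma-voom) and −0.43 (without the low-diversity libraries) and spanned −0.13 to 1.04 on leaving out single libraries, the lowest without Sirt2-/- CD4 replicate 4. Dusp6 spanned −0.79 to 0.0274, the highest without that library, and Spry2 turned to 0.18 (limma-voom). For CD8 TILs, Dusp5 turned to −0.0766 (limma-voom) and to −0.0213 on leaving out the low-diversity library. In WT mice, CD8 against CD4, Spred1 turned to 0.16 (limma-voom), 0.28 (without the low-diversity libraries), 0.13 (without WT CD4 replicate 1) and 0.12 (without WT CD8 replicate 1). Spred2 turned to 0.31 (limma-voom), 0.04 (no filter), 0.0084 (16 libraries) and 0.43 (without the low-diversity libraries), and spanned −0.15 to 0.27 on leaving out single libraries. In Sirt2-/- mice Dusp10 turned to 0.17 (without the low-diversity library), and spanned −1.17 to 0.17, the lowest without Sirt2-/- CD8 replicate 4. Spry1 turned to 0.29 (replicate block), and Spred1 to 0.11 (limma-voom) and 0.14 (without the low-diversity library), from −1.09 without Sirt2-/- CD4 replicate 1. In the interaction Dusp1 turned to −0.0881 (limma-voom) and −0.11 (without the low-diversity libraries), Dusp2 to 0.10 and 0.20, and Spry2 to −0.51 and −0.0637. Dusp10 turned to −0.0308 (replicate block) and spanned −0.76 to 0.59, the lowest without Sirt2-/- CD8 replicate 4, and Spred1 spanned −1.06 to 0.17, the highest without Sirt2-/- CD4 replicate 4. Over all 16 libraries, r turned to −0.062 for Dusp2 with Smyd2 and to −0.165 and −0.251 for Spred1 with Hhex and Il12rb1. Without a turn of sign, r fell to 0.054 for Dusp6 with Spag7 and 0.084 for Spry2 with Psmc5. For Spry1 with Fbxl17 it fell to 0.105 and for Dusp2 with Nat10 to 0.28, while Dusp4 with H1f0 stayed at 0.986.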
